A study of Mus musculus with 7 samples.

Results

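The insulin-like growth factor (IGF) family is described here through 10 genes in mouse sarcoma cells: the ligands Igf1 and Igf2, the receptors Igf1r and Igf2r, and the binding proteins Igfbp2 to Igfbp7. They were chosen by name, as the rows of the deposited count table for these symbols, and make up 10 of 35727 genes in the table. All 10 had enough reads to be among the 13740 genes tested. Igf2 passed the low-count filter only through the Vgll3-labelled libraries, and Igfbp2 only through the Ccne1-labelled libraries. The libraries were polyA RNA of RFP-positive tumour cells sorted from undifferentiated pleomorphic sarcomas, a soft-tissue cancer with no clear line of differentiation. There were 3 libraries of the p53 KO Vgll3 OE line and 4 of the p53 KO Ccne1 OE line. Mesenchymal stem cells of female C57/Bl6 p53 knockout mice had been given Vgll3, a cofactor of TEAD transcription factors, or Ccne1, which encodes cyclin E1, by retroviral vector. Both lines were then passed through female wild-type hosts under the skin before the tumours that were sorted. Loss of p53 and the vector step are therefore common to both groups, and the labels give 1 tumour line per model, so an effect of the transduced gene and other differences between the lines cannot be told apart. The labels do not say that the libraries came from separate animals, and p-values here therefore reflect library-to-library variation, part of which may be technical.

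IGF1 and IGF2 are small secreted hormones that bind IGF1R, a tyrosine kinase receptor that signals through the IRS adaptors to PI3 kinase, AKT and the MAP kinases and favours growth and survival. IGF2R, also known as the cation-independent mannose 6-phosphate receptor, carries no kinase: it takes up IGF2 for breakdown in lysosomes and sorts lysosomal enzymes. Binding proteins hold the ligands outside the cell, and proteases that cut them release the ligand. IGF2 is known to be overexpressed in several kinds of sarcoma.

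Library totals ranged from 21725890 to 53610300 counts. Vgll3 itself was 216 to 285 CPM (read counts for every 1000000 of the effective library size) in the Vgll3-labelled libraries and 37.9 to 56.2 CPM in the Ccne1-labelled libraries. Ccne1 was 12.7 to 17.0 CPM in Vgll3-labelled libraries and 6.73 to 18.3 CPM in Ccne1-labelled libraries. No difference in Ccne1 was called between the models (log2 fold change 0.23, 95% interval −0.58 to 1.03, edgeR adjusted p = 0.609), so groups are called by their labels. There is no library of cells without a vector, so a rise of Ccne1 over its starting cells can be neither seen nor denied. Of 8 mesenchymal markers tested, 3 were higher and 3 lower in Vgll3-labelled libraries at an edgeR adjusted p of 0.05, and 2 were not called. Over all tested genes 25.1% were higher and 26.8% lower. The summed CPM of the 8 was 34604 to 41611 in Vgll3-labelled libraries and 22348 to 27552 in Ccne1-labelled libraries. Among them Vim, Col1a1, Col1a2 and Prrx1 were detected at high levels in every library. Vim was 4150 to 4624 CPM in Vgll3-labelled libraries and 12670 to 15753 CPM in Ccne1-labelled libraries. Thy1, another mesenchymal marker, was low at 0.378 to 2.54 CPM in Vgll3-labelled libraries and 0.763 to 9.42 CPM in Ccne1-labelled libraries. Vgll3 replicate 3 was the least alike within its group: its log2 CPM correlated across genes with the other two Vgll3-labelled libraries at Pearson r 0.956 and 0.960, and every other same-group pair reached 0.978 to 0.987.

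Of the 10 genes, 2 were higher and 4 lower in the Vgll3-labelled libraries at an edgeR adjusted p of 0.05 (a quasi-likelihood test adjusted over all tested genes), and 4 were not called. Igf2 and Igf2r rose, and Igfbp2, Igfbp3, Igfbp4 and Igfbp6 fell. Without Vgll3 replicate 3 the counts were again 2 higher and 4 lower. Of all tested genes, 51.9% were called, 25.1% higher and 26.8% lower, so the number of family members called is near the background and is not a result about the family. The groups did not overlap for 7 of the 10 genes, 3 higher and 4 lower in the Vgll3-labelled libraries, against 55.7% of all tested genes, 26.8% higher and 29% lower. The median log2 fold change (Vgll3-labelled over Ccne1-labelled) was 0.01 over the 10 genes, the same to 2 decimals as over all tested genes.

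**Figure D1:**
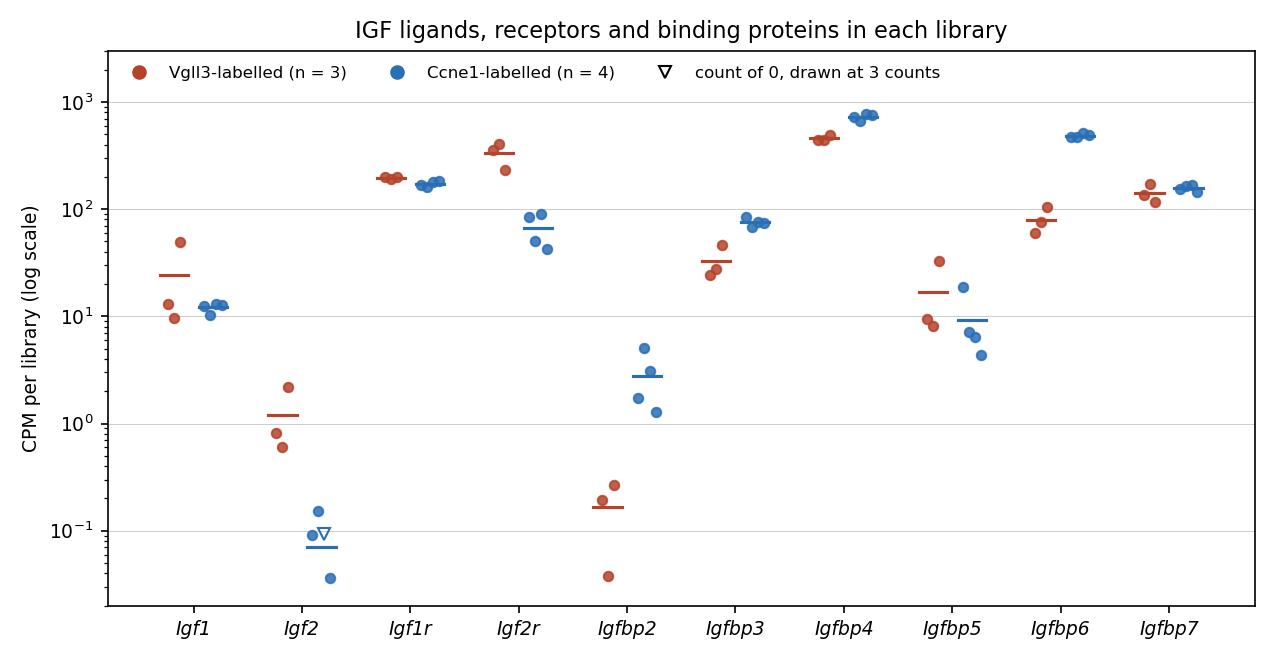
CPM of each of the 10 genes in each library on a log axis, with Vgll3-labelled libraries (n = 3, red) left of Ccne1-labelled libraries (n = 4, blue) and a bar at each group mean; a count of 0 is drawn as an open triangle at the level of 3 counts. The lowest Vgll3-labelled library had 233 CPM of Igf2r, above the highest Ccne1-labelled library at 89.5 CPM, and Igf1 and Igfbp5 have 1 high point among the Vgll3-labelled libraries.

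**Figure D2:**
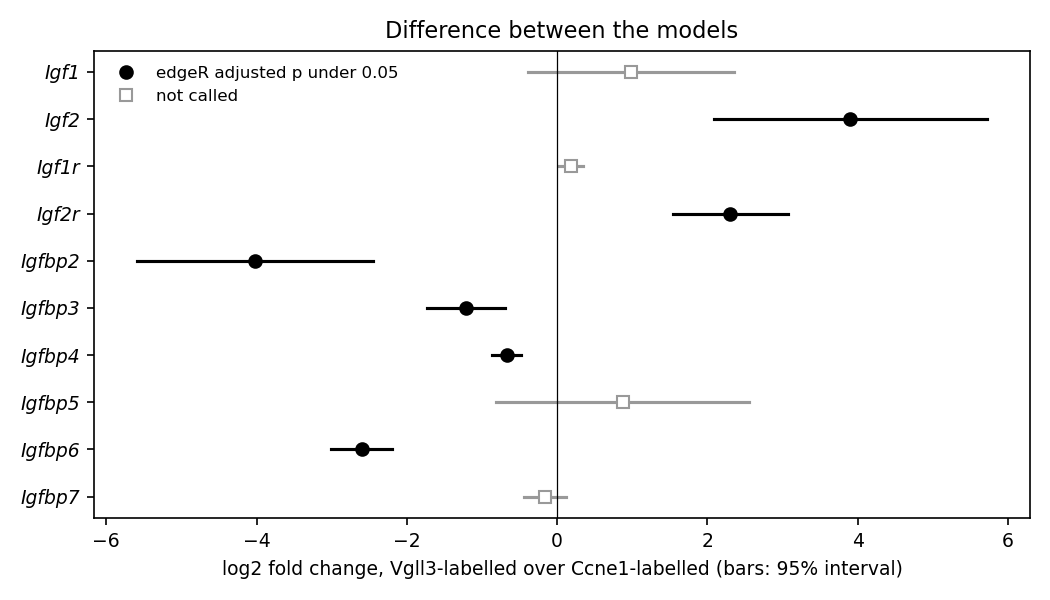
Log2 fold change of each gene, Vgll3-labelled over Ccne1-labelled libraries, with its 95% interval; filled circles passed an edgeR adjusted p of 0.05 and open squares did not. Intervals run from 1.54 to 3.08 for Igf2r and from −3.01 to −2.19 for Igfbp6.

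Igf2 (ENSMUSG00000048583, mm10 chromosome 7, 142650766 to 142666816, minus strand) is the fetal growth hormone of the family and in mice is expressed mainly from the paternal allele. Its transcript was scarce in both models. There were 38, 16 and 65 counts in Vgll3 replicates 1 to 3, and 2, 8, 0 and 1 counts in Ccne1 replicates 1 to 4. That is 0.814, 0.605 and 2.18 CPM in the Vgll3-labelled libraries and 0.0910, 0.154, 0 and 0.0363 CPM in the Ccne1-labelled libraries. All 3 Vgll3-labelled libraries lay above all 4 Ccne1-labelled libraries, 3 of which held 2 counts or fewer. That Igf2 was tested at all depended on the group where it was high. The log2 fold change was 3.90 with SE 0.80 (edgeR adjusted p = 0.00331, exact permutation p = 0.0286, the smallest p that 3 against 4 libraries allow). Summed over libraries, 119 counts in the Vgll3-labelled against 11 in the Ccne1-labelled libraries give, per effective library size, a ratio of 14.0, with a 95% exact interval of 7.57 to 28.9 that covers counting error only. The log2 fold change was 3.16 without Vgll3 replicate 3 and 4.84 without Ccne1 replicate 2. Exons of Igf2 share 3596 bases with Gm49394, which held 4 counts over all libraries, and 98 bases with the antisense gene Igf2os, which is not analysed here.

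The RefSeq promoter table (GRCm38.p6, windows of 250 bases before to 50 after a transcript start) lists 4 starts for Igf2, and 3 of these windows hold the TEAD motif GGAATG or its reverse complement CATTCC. TEAD factors are the partners of VGLL3, and the motif was searched for that reason. Of all 32851 windows in the table, 14.7% hold it on either strand, and among the 10 genes it was found in those of Igf2 and Igfbp5 only. The window nearest the 3′ end of the gene is shown with the motif in capitals, beginning 163 bases before the start:
Igf2 chr7:142657447-142657746, minus strand: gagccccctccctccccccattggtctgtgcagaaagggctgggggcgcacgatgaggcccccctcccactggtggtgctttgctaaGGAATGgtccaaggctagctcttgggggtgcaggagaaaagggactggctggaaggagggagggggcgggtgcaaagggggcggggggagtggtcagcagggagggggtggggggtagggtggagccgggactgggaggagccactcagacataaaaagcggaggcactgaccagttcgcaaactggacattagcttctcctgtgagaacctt
A match is a description of these letters, and no binding was measured.

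Igf1 (ENSMUSG00000020053, chromosome 10, 87858265 to 87937042, plus strand) encodes the ligand that mediates much of growth hormone action and is also made by macrophages and fibroblasts. It was 13.1, 9.71 and 49.6 CPM in Vgll3 replicates 1 to 3, and 12.6, 10.4, 13.2 and 12.7 CPM in Ccne1 replicates 1 to 4. Vgll3 replicate 3 was high and the other 6 libraries lay within 9.71 to 13.2 CPM, so the groups overlapped. The log2 fold change of 0.98 (SE 0.56, 95% interval −0.38 to 2.35) was not called (edgeR adjusted p = 0.190, exact permutation p = 0.457), and without Vgll3 replicate 3 it was −0.0797 (edgeR adjusted p = 0.697).

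Igfbp5 (ENSMUSG00000026185, chromosome 1, 72857932 to 72874884, minus strand), a binding protein that attaches to matrix and is made by many mesenchymal cells, had the same high library. It was 9.50, 8.20 and 32.5 CPM in Vgll3 replicates 1 to 3, and 18.8, 7.20, 6.38 and 4.396 CPM in Ccne1 replicates 1 to 4. Vgll3 replicate 3 was highest and Ccne1 replicate 1 came next, with the groups overlapping. The log2 fold change of 0.87 (SE 0.69, 95% interval −0.81 to 2.56) was not called (edgeR adjusted p = 0.332). It was −0.0268 without Vgll3 replicate 3 and 1.47 without Ccne1 replicate 1. The promoter window of Igfbp5, shown because it is the other one with the TEAD motif, has CATTCC (capitals) beginning 233 bases before the start:
Igfbp5 chr1:72874816-72875115, minus strand: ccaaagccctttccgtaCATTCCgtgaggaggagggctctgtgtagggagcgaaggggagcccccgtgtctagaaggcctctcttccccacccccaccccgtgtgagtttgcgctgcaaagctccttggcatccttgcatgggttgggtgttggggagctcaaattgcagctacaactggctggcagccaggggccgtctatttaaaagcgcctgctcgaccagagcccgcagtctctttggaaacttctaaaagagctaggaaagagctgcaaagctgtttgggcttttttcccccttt
As for Igf2, the letters alone were read and no binding was measured.

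Markers of host cells that a sort can carry over were set beside these 2 genes. Each count of called markers below stands against 51.9% of all tested genes called, 25.1% higher and 26.8% lower. The lists are too short to read a result from these counts. Of 8 endothelial markers, 0 were called, and none was at a count of 0 in all libraries. Their summed CPM was 34.4, 65.8 and 232 in Vgll3 replicates 1 to 3, and 137, 51.2, 83.3 and 59.9 in Ccne1 replicates 1 to 4. Vgll3 replicate 3 and Ccne1 replicate 1 were thus the highest of their groups, as for Igfbp5. The endothelial gene Pecam1 gave 184 CPM of the sum in Vgll3 replicate 3. Without Pecam1, left out after its values were seen, the other 7 markers summed to 14.8, 30.5 and 48.1 CPM in Vgll3 replicates 1 to 3, and 66.2, 28.8, 33.6 and 36.5 CPM in Ccne1 replicates 1 to 4. Ccne1 replicate 1 was then the highest library, and Vgll3 replicate 3 the highest of its group. Of 10 macrophage markers, 6 were tested and 0 called, with sums of 7.44, 8.65 and 17.6 CPM in Vgll3 replicates 1 to 3 and 17.3, 11.4, 10.7 and 7.85 CPM in Ccne1 replicates 1 to 4. Vgll3 replicate 3 and Ccne1 replicate 1 had almost the same macrophage sum, with 49.6 CPM of Igf1 in Vgll3 replicate 3 and 12.6 CPM in Ccne1 replicate 1. The part of host cells in the levels of Igf1 and Igfbp5 was not tested, and in sorted bulk RNA more cells of a type and more RNA per cell cannot be told apart. Other marker lists were low, with summed CPM in the Vgll3-labelled and Ccne1-labelled libraries of at most 0.201 and 0.318 for adipocytes (0 of 4 genes tested, Lep and Cidec at a count of 0 throughout), 1.31 and 4.69 for muscle fibres (1 of 2 tested genes fell), 1.81 and 0.962 for T and B cells (0 of 1 called), 2.98 and 2.38 for keratinocytes (0 of 1 called, Krt5 at a count of 0) and 2.21 and 10.3 for erythroid cells (2 of 3 fell). Of 5 pericyte markers 2 rose and 1 fell, and their sums of 145 to 172 CPM in Vgll3-labelled libraries and 459 to 551 CPM in Ccne1-labelled libraries came mostly from Cspg4.

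**Figure D3:**
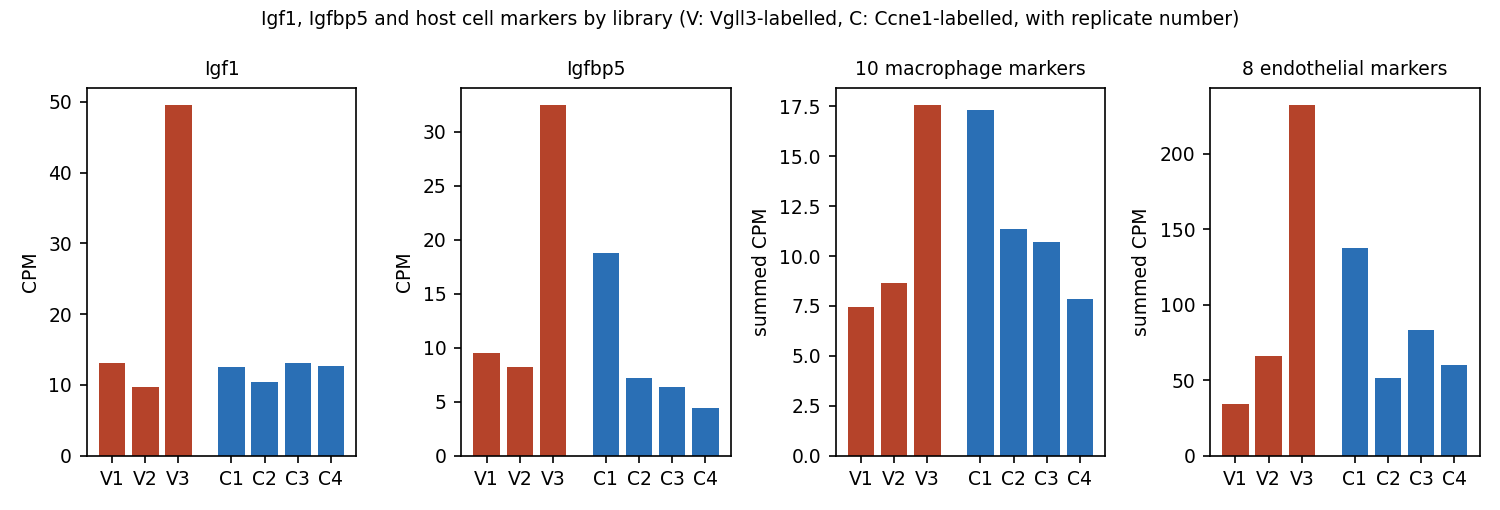
CPM of Igf1 and Igfbp5 and summed CPM of 10 macrophage and 8 endothelial markers in each library, Vgll3-labelled (V, red) left of Ccne1-labelled (C, blue), all axes starting at 0. Vgll3 replicate 3 (V3) is the highest library in each panel, at 49.6 CPM for Igf1 and 232 CPM for the endothelial sum, of which Pecam1 gave 184 CPM; without Pecam1 Ccne1 replicate 1 had the highest sum, 66.2 CPM.

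Igf2r (ENSMUSG00000023830, chromosome 17, 12682406 to 12769664, minus strand) rose. It was 354, 405 and 233 CPM in Vgll3 replicates 1 to 3, and 85.1, 50.3, 89.5 and 42.8 CPM in Ccne1 replicates 1 to 4. The lowest Vgll3-labelled library lay well above the highest Ccne1-labelled library. The mean was 331 ± 88.0 CPM in Vgll3-labelled libraries, against 66.9 ± 23.8 CPM in Ccne1-labelled libraries (mean ± SD over n = 3 and n = 4, as throughout), a 4.95-fold rise with a 95% interval of 2.90 to 8.43 (edgeR log2 fold change 2.31, SE 0.32, adjusted p = 0.00113, exact permutation p = 0.0286). Leaving out any library kept the log2 fold change between 2.13 and 2.51. Igf2r, like Igf2, is an imprinted gene in mice, expressed mainly from the maternal allele in most tissues. Map3k4 and Mrpl18, the nearest non-overlapping tested genes on each side, both fell (log2 fold changes −0.42 and −0.36, edgeR adjusted p = 0.000791 and 0.00487). Its promoter window is dense in CpG dinucleotides (capitals), with 34 of them, more than in 92.3% of all windows in the table:
Igf2r chr17:12769657-12769956, minus strand: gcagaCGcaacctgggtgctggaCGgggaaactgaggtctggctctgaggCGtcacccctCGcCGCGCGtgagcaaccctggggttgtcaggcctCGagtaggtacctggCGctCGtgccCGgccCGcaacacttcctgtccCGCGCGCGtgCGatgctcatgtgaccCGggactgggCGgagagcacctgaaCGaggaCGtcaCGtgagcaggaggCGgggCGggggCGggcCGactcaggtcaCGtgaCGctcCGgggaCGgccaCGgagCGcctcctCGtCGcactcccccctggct
No DNA methylation was measured in these data. A dense window was not particular to Igf2r. Igf1r and Igfbp7, not called, had 48 and 33 CpG, and Igfbp3 and Igfbp4, which fell, had 37 and 27. The windows of Igf2, which rose, had 2, 14, 24 and 7, and those of Igfbp2, which fell, 18 and 14. Igf1 and Igfbp5, not called, had 6 and 10. No relation of CpG count to direction was tested.

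Igf1r (ENSMUSG00000005533, chromosome 7, 67952827 to 68233668, plus strand), the signalling receptor, was not called. It was 198, 190 and 199 CPM in Vgll3 replicates 1 to 3, and 167, 161, 178 and 182 CPM in Ccne1 replicates 1 to 4. The groups did not overlap, yet the gap was narrow. The log2 fold change of 0.18 (SE 0.07, 95% interval 0.03 to 0.34) just missed the threshold (edgeR adjusted p = 0.0503, exact permutation p = 0.0571), and it passed with size factors in place of TMM scaling (adjusted p = 0.0377), with a stricter filter (0.0326) and with DESeq2 (0.0120). The upper bound of that interval is a 1.27-fold difference. Insr, the insulin receptor, which forms hybrids with IGF1R, fell to 76.5 ± 6.66 CPM in the Vgll3-labelled libraries, against 116 ± 6.41 CPM in the Ccne1-labelled libraries (edgeR log2 fold change −0.60, adjusted p = 0.000334).

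Of the 6 binding proteins, 4 fell, 0 rose and 2 were not called, where 26.8% of all tested genes fell and 25.1% rose; 6 genes are too few to read a family result from this count. Igfbp6 (ENSMUSG00000023046, chromosome 15, 102144362 to 102149511, plus strand), which prefers IGF2 to IGF1, fell. It was 59.9, 75.4 and 104 CPM in Vgll3 replicates 1 to 3, and 471, 467, 511 and 488 CPM in Ccne1 replicates 1 to 4. Even the highest Vgll3-labelled library was far below the narrow band of the Ccne1-labelled libraries. The mean was 79.9 ± 22.6 CPM in Vgll3-labelled libraries, against 484 ± 20.1 CPM in Ccne1-labelled libraries, a 6.06-fold fall (95% interval 4.57 to 8.04, log2 fold change −2.60, SE 0.18, edgeR adjusted p = 1.62e-05, exact permutation p = 0.0286). The nearest tested genes, Spryd3 at 8128 bases and Soat2 at 1015 bases, were not called (log2 fold changes −0.08 and 0.99). The Igfbp6 window is shown beside that of Igf2r as the binding protein with the smallest adjusted p. It holds 8 CpG dinucleotides (capitals), where the median over all windows is 7:
Igfbp6 chr15:102143936-102144235, plus strand: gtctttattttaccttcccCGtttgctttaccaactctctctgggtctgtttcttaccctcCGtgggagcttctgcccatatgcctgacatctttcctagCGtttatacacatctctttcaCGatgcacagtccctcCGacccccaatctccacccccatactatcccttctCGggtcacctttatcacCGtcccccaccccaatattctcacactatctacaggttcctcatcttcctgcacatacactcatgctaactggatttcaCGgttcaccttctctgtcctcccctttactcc
The RefSeq start of this window lies upstream of the gene bound given above, which comes from GENCODE.

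Igfbp6 is also known from normal skin fibroblasts, so markers of those cells were compared. Of 5 such markers, 2 fell (Dpt and Dpp4) and 0 rose, where 26.8% of all tested genes fell and 25.1% rose. These genes are too few to read a result from this count. None of the 5 was at a count of 0 in all libraries. Their sums of 144 to 181 CPM in Vgll3-labelled libraries and 180 to 205 CPM in Ccne1-labelled libraries came mostly from Cd34. Dpt was 0.642 to 3.04 CPM in the Vgll3-labelled libraries, and 19.7, 15.3, 12.7 and 3.49 CPM in Ccne1 replicates 1 to 4. Ccne1 replicate 4, with the least Dpt of its group, had 488 CPM of Igfbp6, within the range of its group. The part of such cells in the level of Igfbp6 was not tested.

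Igfbp4 (ENSMUSG00000017493, chromosome 11, 99041244 to 99054392, plus strand), an inhibitor of IGF action that is cut by pappalysin, fell. It was 443, 440 and 487 CPM in Vgll3 replicates 1 to 3, and 720, 658, 772 and 761 CPM in Ccne1 replicates 1 to 4. Spread within each group was small and the groups were clearly apart. The fall was 1.59-fold (95% interval 1.40 to 1.82, log2 fold change −0.67, SE 0.09, edgeR adjusted p = 0.000233, exact permutation p = 0.0286).

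Igfbp3 (ENSMUSG00000020427, chromosome 11, 7206086 to 7213923, minus strand), the main carrier of IGFs in blood and a known p53 target, was 24.4, 27.4 and 46.8 CPM in Vgll3 replicates 1 to 3, and 84.4, 68.6, 76.5 and 74.9 CPM in Ccne1 replicates 1 to 4. Vgll3 replicate 3 came nearest to the Ccne1-labelled libraries without reaching them. The fall was 2.32-fold (95% interval 1.62 to 3.32, log2 fold change −1.21, SE 0.22, edgeR adjusted p = 0.00277, exact permutation p = 0.0286), and the log2 fold change was −1.55 without Vgll3 replicate 3. Its nearest tested neighbour, Adcy1, rose, with 6.14 ± 1.46 CPM in Vgll3-labelled libraries and 0.881 ± 0.440 CPM in Ccne1-labelled libraries (edgeR adjusted p = 0.000256).

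Igfbp2 (ENSMUSG00000039323, chromosome 1, 72824503 to 72852474, plus strand), a binding protein often raised in cancers, was low throughout. There were 9, 1 and 8 counts in Vgll3 replicates 1 to 3 (0.193, 0.0378 and 0.268 CPM), and 38, 265, 100 and 35 counts in Ccne1 replicates 1 to 4 (1.73, 5.10, 3.10 and 1.27 CPM). All Vgll3-labelled libraries lay below all Ccne1-labelled libraries, which themselves spread widely. That Igfbp2 was tested at all depended on the group where it was high. The log2 fold change was −4.02 (SE 0.69, edgeR adjusted p = 0.00134, exact permutation p = 0.0286), and the ratio of summed counts per effective library size, 18 in the Vgll3-labelled against 438 in the Ccne1-labelled libraries, was 0.0534 (95% exact interval 0.0313 to 0.0853, counting error only). Igfbp2 and Igfbp5 lie 5458 bases apart and point towards each other, but the first fell and the second was not called.

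Igfbp7 (ENSMUSG00000036256, chromosome 5, 77349240 to 77408041, minus strand), a relative of the family with low affinity for IGFs that is abundant in vessels and stroma, was 137, 171 and 118 CPM in Vgll3 replicates 1 to 3, and 152, 166, 169 and 145 CPM in Ccne1 replicates 1 to 4. The groups overlapped and the log2 fold change of −0.16 (SE 0.12, 95% interval −0.44 to 0.12) was not called (edgeR adjusted p = 0.301). Without Vgll3 replicate 2, its highest library, it was −0.32 and passed (edgeR adjusted p = 0.0372). Its exons share 85 bases with Polr2b on the opposite strand, and the sources used here do not state if counting was strand-aware.

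Levels of different genes were compared per length, as CPM per kb of annotated exon. In the Vgll3-labelled libraries Igfbp7 led with 117 ± 22.1 CPM per kb, followed by Igfbp4 with 103 ± 5.94, with overlapping ranges, and Igfbp6 with 71.8 ± 20.3. In the Ccne1-labelled libraries Igfbp6 led with 435 ± 18.1 CPM per kb, followed by Igfbp4 with 165 ± 11.7 and Igfbp7 with 131 ± 9.40, and none of these ranges overlapped. Igf2r came after Igfbp6 in the Vgll3-labelled libraries at 35.5 ± 9.45 CPM per kb, above Igf1r at 11.6 ± 0.297, with no overlap, while Igfbp3 at 10.5 ± 3.88 overlapped Igf1r. In the Ccne1-labelled libraries Igf2r came after Igf1r, at 7.19 ± 2.55 against 10.2 ± 0.577 CPM per kb, with overlapping ranges, and Igfbp3 lay above both at 24.3 ± 2.08. Igfbp5 was 2.78 ± 2.27 CPM per kb in Vgll3-labelled libraries, against 1.53 ± 1.08 CPM per kb in Ccne1-labelled libraries, and Igfbp2 was 0.0900 ± 0.0635 CPM per kb in Vgll3-labelled libraries, against 1.52 ± 0.931 CPM per kb in Ccne1-labelled libraries. Igf1 per length was 2.44 ± 2.23 CPM per kb in Vgll3-labelled libraries, against 1.23 ± 0.125 CPM per kb in Ccne1-labelled libraries, and Igf2 was last or next to last in each group, at 0.209 ± 0.149 CPM per kb in Vgll3-labelled libraries, against 0.0123 ± 0.0117 CPM per kb in Ccne1-labelled libraries. With the longest transcript as the length, Igfbp4 and Igfbp7 changed places in the Vgll3-labelled libraries, at 119 and 118 CPM per kb. Igf1 and Igfbp5 also changed places there, at 3.42 and 2.78 CPM per kb. In the Ccne1-labelled libraries Igfbp5, at 1.53 CPM per kb, then came after Igfbp2 at 2.14 and Igf1 at 1.73.

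The 6 binding proteins summed to 306 ± 25.2 CPM per kb in the Vgll3-labelled libraries and 758 ± 30.7 CPM per kb in the Ccne1-labelled libraries. Igfbp6 made up 23.3 ± 5.15% of that sum in Vgll3-labelled libraries and 57.4 ± 0.424% in Ccne1-labelled libraries. The share of Igfbp7 was 38.5 ± 7.32% in Vgll3-labelled libraries and 17.3 ± 1.19% in Ccne1-labelled libraries, and that of Igfbp4 33.9 ± 2.49% in Vgll3-labelled libraries and 21.7 ± 1.00% in Ccne1-labelled libraries. Igfbp2, Igfbp3 and Igfbp5 together gave the small remainder. These shares are a description of the chosen genes and carry no test.

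**Figure D4:**
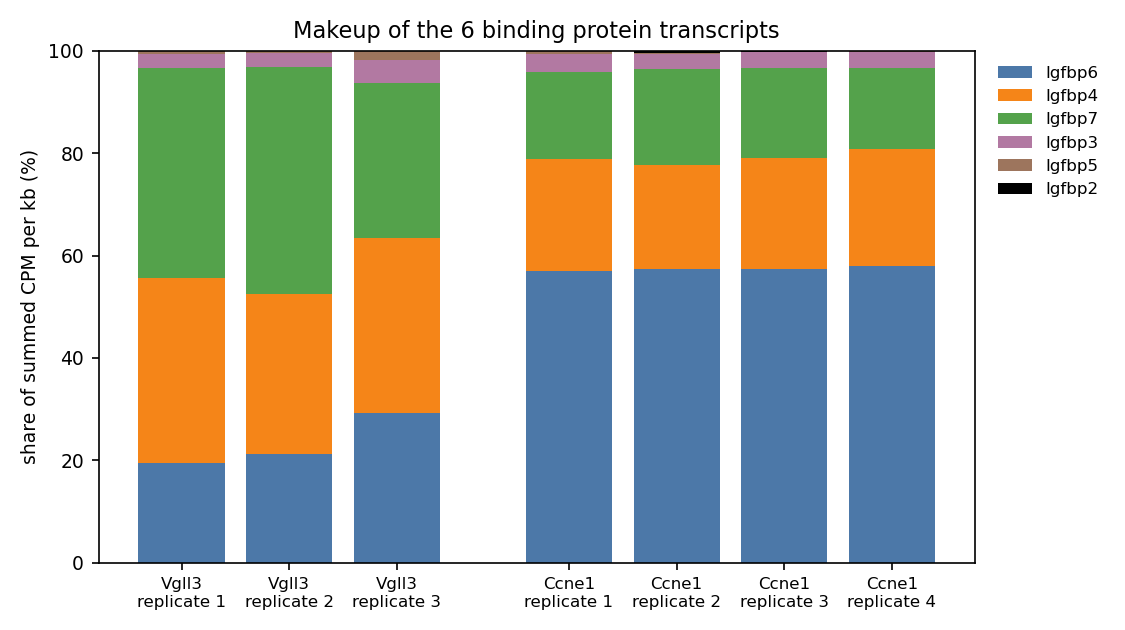
Share of each binding protein in the summed CPM per kb of the 6 binding proteins, 1 bar per library, Vgll3-labelled libraries left of Ccne1-labelled libraries. Igfbp6 takes 19.5 to 29.2% of the Vgll3-labelled bars and 56.97 to 58.0% of the Ccne1-labelled bars.

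Proteases that cut the binding proteins release the ligands, and the stanniocalcins inhibit some of them. Of 9 such genes tested, 5 rose, 2 fell and 2 were not called, against 25.1% higher and 26.8% lower over all tested genes. The median log2 fold change was 0.51, against 0.01 over all tested genes. With a filter of 1 CPM in 3 libraries it was 0.26 over 8 genes. The list mixes proteases with their inhibitors and is too short to read a result from these counts or medians. Pappa, which encodes pappalysin 1 (PAPP-A), the protease of IGFBP4, was 150, 134 and 76.7 CPM in Vgll3 replicates 1 to 3, and 2.55, 1.89, 2.69 and 1.78 CPM in Ccne1 replicates 1 to 4. The lowest Vgll3-labelled library was far above every Ccne1-labelled library, and the log2 fold change was 5.77 (SE 0.29, edgeR adjusted p = 1.04e-05). Its paralog Pappa2 was 1.07 ± 0.263 CPM in Vgll3-labelled libraries and 0.111 ± 0.0348 CPM in Ccne1-labelled libraries, from 113 and 15 counts in all (edgeR log2 fold change 3.23, adjusted p = 0.000466). Stc1 and Stc2 encode the stanniocalcins that inhibit pappalysins and were picked out after their values were seen. Stc1 was 200, 85.4 and 48.2 CPM in Vgll3 replicates 1 to 3, and 10.9, 22.7, 12.8 and 8.90 CPM in Ccne1 replicates 1 to 4, so the inhibitor and the protease both rose (edgeR log2 fold change 2.99, adjusted p = 0.00602, and 2.25 without Vgll3 replicate 1). Stc2 was 10.3 to 16.2 CPM in Vgll3-labelled libraries and 13.1 to 14.8 CPM in Ccne1-labelled libraries, with no call (edgeR adjusted p = 0.624). The secreted protease Htra1 rose to 1135 ± 126 CPM in the Vgll3-labelled libraries, against 795 ± 80.7 CPM in the Ccne1-labelled libraries (edgeR adjusted p = 0.00349). Ctsd, the lysosomal protease cathepsin D, fell to 212 ± 14.1 CPM in Vgll3-labelled libraries, against 384 ± 15.3 CPM in Ccne1-labelled libraries (edgeR adjusted p = 3.7e-05), and the metalloprotease Adam9 to 227 ± 20.2 CPM in Vgll3-labelled libraries, against 305 ± 23.9 CPM in Ccne1-labelled libraries (edgeR adjusted p = 0.00408). With replicate number added to the edgeR design (a replicate block), 3 of the 9 rose and 1 fell. The shares of all tested genes were then 16.6% higher and 18.6% lower. The calls that ended were those of Stc1, Htra1 and Adam9 (edgeR adjusted p = 0.0554, 0.0518 and 0.0504). The block has less power, as Ccne1 replicate 4 has no Vgll3-labelled partner in it.

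**Figure D5:**
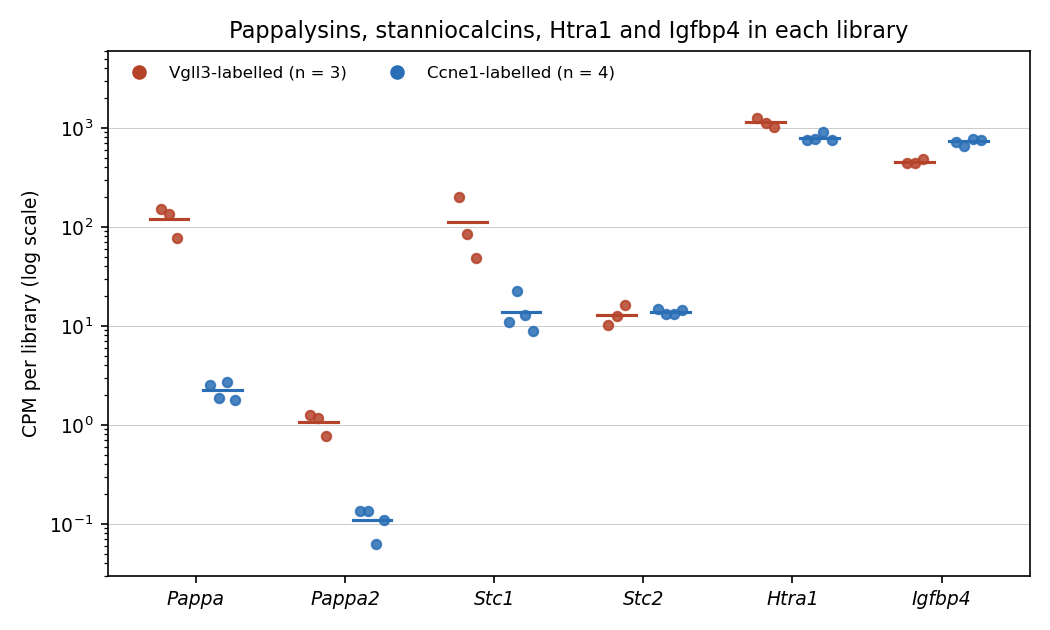
CPM in each library on a log axis for the pappalysins, the stanniocalcins, Htra1 and Igfbp4, Vgll3-labelled (red, n = 3) left of Ccne1-labelled (blue, n = 4) with bars at group means. Pappa shows a wide gap, on average 120 CPM in Vgll3-labelled and 2.23 CPM in Ccne1-labelled libraries, while Stc2 overlaps between the groups.

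Among adaptors and kinases downstream of IGF1R, 5 of 20 tested genes rose, near the 25.1% of all tested genes, 9 fell, where 26.8% of all tested genes did, and 6 were not called, with a median log2 fold change of −0.11. The catalytic PI3 kinase subunits on this list were Pik3cb and Pik3ca, and both fell. Pik3cb was 12.6 ± 5.56 CPM in Vgll3-labelled libraries and 81.4 ± 4.48 CPM in Ccne1-labelled libraries (edgeR log2 fold change −2.69, SE 0.27, adjusted p = 0.000166), and Pik3ca was 135 to 142 CPM in Vgll3-labelled libraries and 247 to 270 CPM in Ccne1-labelled libraries (edgeR log2 fold change −0.92, adjusted p = 1.62e-05). The regulatory subunits Pik3r3 and Pik3r1 rose. Pik3r3 was 3.11 ± 0.546 CPM in Vgll3-labelled libraries, against 0.767 ± 0.572 CPM in Ccne1-labelled libraries (edgeR log2 fold change 2.04, adjusted p = 0.008, and 2.63 without Ccne1 replicate 1), and Pik3r1 was 42.3 ± 5.31 CPM in Vgll3-labelled libraries, against 29.6 ± 1.72 CPM in Ccne1-labelled libraries (edgeR adjusted p = 0.00207). Another regulatory subunit, Pik3r2, was not called. Akt1, a central kinase of the pathway, was 411 ± 17.1 CPM in Vgll3-labelled libraries, against 334 ± 29.3 CPM in Ccne1-labelled libraries (edgeR adjusted p = 0.0165). That call ended without Vgll3 replicate 2 (0.0674), without Ccne1 replicate 4 (0.0507) and with the replicate block (0.127).

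Of 12 genes that act as brakes on receptor signalling, 1 rose, 5 fell and 6 were not called, against 25.1% higher and 26.8% lower over all tested genes, with a median log2 fold change of −0.21. Grb14, an adaptor that inhibits the insulin receptor, fell to 6.62 ± 2.50 CPM in the Vgll3-labelled libraries, against 37.7 ± 1.97 CPM in the Ccne1-labelled libraries (edgeR log2 fold change −2.52, SE 0.23, adjusted p = 7.83e-05). Its imprinted paralog Grb10 was 0.916 ± 0.404 CPM in Vgll3-labelled libraries, against 2.44 ± 0.913 CPM in Ccne1-labelled libraries (edgeR adjusted p = 0.0195), and the call ended without Vgll3 replicate 1 (0.0549) or 2 (0.0650). Socs3, a feedback inhibitor of cytokine and insulin signalling, was 208 ± 72.9 CPM in Vgll3-labelled libraries, against 394 ± 75.9 CPM in Ccne1-labelled libraries (edgeR adjusted p = 0.0172). The call for Socs3 ended without Vgll3 replicate 3 (0.0715), with no low-count filter (0.0571) and with the replicate block (0.0936). Phlda3, which blocks AKT at the membrane, was the gene that rose, at 42.9 ± 5.96 CPM in Vgll3-labelled libraries, against 34.5 ± 3.23 CPM in Ccne1-labelled libraries. Its call (edgeR adjusted p = 0.0392) ended when any of 5 libraries was left out, with adjusted p of 0.0504 to 0.178, and with the replicate block (0.0618).

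FOXO transcription factors are switched off by AKT. Of 12 tested genes made up of FOXO factors and their known targets, 3 rose, 7 fell and 2 were not called (median log2 fold change −0.52). Over all tested genes 25.1% rose and 26.8% fell, and this count of RNA levels does not measure FOXO activity. Fbxo32, which encodes the ubiquitin ligase atrogin-1, fell to 49.7 ± 1.35 CPM in the Vgll3-labelled libraries, against 147 ± 18.6 CPM in the Ccne1-labelled libraries (edgeR log2 fold change −1.57, adjusted p = 1.07e-05). Foxo1 was 17.3 ± 2.89 CPM in Vgll3-labelled libraries, against 41.2 ± 5.36 CPM in Ccne1-labelled libraries, and Foxo3 was 149 ± 17.2 CPM in Vgll3-labelled libraries, against 320 ± 73.9 CPM in Ccne1-labelled libraries (edgeR adjusted p = 0.000117 and 0.00097). Pdk4, a brake on glucose oxidation, rose to 2.50 ± 1.45 CPM in Vgll3-labelled libraries, against 0.413 ± 0.288 CPM in Ccne1-labelled libraries (edgeR adjusted p = 0.00809), and the glucose-uptake inhibitor Txnip to 23.7 ± 5.55 CPM in Vgll3-labelled libraries, against 7.24 ± 1.99 CPM in Ccne1-labelled libraries (edgeR adjusted p = 0.000504).

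The IMP proteins bind the Igf2 transcript. Of 9 tested genes of Igf2 imprinting and RNA binding, 1 rose, 4 fell and 4 were not called (median log2 fold change −0.77), where 25.1% of all tested genes rose and 26.8% fell. Lin28b, which blocks let-7 microRNAs, was 3.22, 3.29 and 3.98 CPM in Vgll3 replicates 1 to 3 and held 356 counts over these 3 libraries, against 5 counts over the 4 Ccne1-labelled libraries, a ratio of 92.5 (95% exact interval 39.2 to 286, counting error only; edgeR adjusted p = 1.99e-05). Hmga2, a let-7 target, was 212 to 291 CPM in Vgll3-labelled libraries and 397 to 499 CPM in Ccne1-labelled libraries (edgeR log2 fold change −0.90, adjusted p = 0.000413). Igf2bp3, which encodes IMP3, was 2.54 ± 1.91 CPM in Vgll3-labelled libraries, against 8.06 ± 1.22 CPM in Ccne1-labelled libraries (edgeR log2 fold change −1.67, adjusted p = 0.0164); this was −2.49 without Vgll3 replicate 3, and the call ended without Vgll3 replicate 2 (0.0611). Zfp57, which maintains imprints, was 5.09 ± 1.48 CPM in Vgll3-labelled libraries, against 11.4 ± 2.23 CPM in Ccne1-labelled libraries (edgeR adjusted p = 0.00224). H19 and Airn, the noncoding partners of Igf2 and Igf2r, are not analysed here.

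Genes that work with IGF2R in lysosomal sorting moved in both directions. Of 9 tested, 2 rose, 4 fell and 3 were not called, with a median log2 fold change of −0.27. The shares of all tested genes were 25.1% higher and 26.8% lower. M6pr, the cation-dependent mannose 6-phosphate receptor, fell to 108 ± 8.66 CPM in the Vgll3-labelled libraries, against 148 ± 2.87 CPM in the Ccne1-labelled libraries (edgeR adjusted p = 0.000748). Gnptg, a subunit of the enzyme that makes the mannose 6-phosphate tag, fell to 6.25 ± 0.499 CPM in Vgll3-labelled libraries, against 18.1 ± 0.697 CPM in Ccne1-labelled libraries (edgeR log2 fold change −1.53, adjusted p = 1.04e-05). Vps35 of the retromer was 157 ± 16.5 CPM in Vgll3-labelled libraries, against 204 ± 8.62 CPM in Ccne1-labelled libraries (edgeR adjusted p = 0.00533). The adaptors Gga2 and Gga1 rose by log2 0.30 and 0.24 (edgeR adjusted p = 0.00886 and 0.0174). Both calls ended with the replicate block (0.0881 and 0.134). The call for Gga1 also ended without Vgll3 replicate 2 (0.0865), without Ccne1 replicate 4 (0.0516) and with no low-count filter (0.0577).

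Other carriers and insulin-type ligands were near or at 0. Igfbp1, Igfbpl1, Ins1 and Ins2 had no count in any library, which allows at most 0.0577 to 0.136 CPM per library (3 counts, counting error only), and Igfals had at most 0.109 CPM. Of 18 genes outside the family that are the nearest non-overlapping tested neighbours of the 10, 7 rose, 5 fell and 6 were not called. The shares over all tested genes were 25.1% higher and 26.8% lower. Genes that overlap a member, such as Polr2b for Igfbp7, were left out. As a description over the 7 libraries, 1236 tested genes had a Pearson r of at least 0.95 with Igfbp6, led by Fam189b, Ccdc6 and Disp2. There were 498 such genes for Igfbp2, led by Ncoa6, Aar2 and Pld3, and 150 for Igf2, led by Oasl2, Oas3 and Ccdc28a. The points of these correlations share the split into Vgll3-labelled and Ccne1-labelled libraries, and they carry no p.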

How the data were processed

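Sorted sarcoma cells gave 7 polyA RNA-seq libraries, grouped by the sample titles into 3 Vgll3-labelled and 4 Ccne1-labelled. For each Ensembl gene the deposited values are the authors' estimated counts; the submitters' processing notes name Salmon and mouse build mm10. The Salmon version, annotation and strand setting are not given in the sources here. All values were whole. Of 35727 genes, 35422 had a symbol. Gene bounds (1-based) and exon lengths came from GENCODE M21 (GRCm38, the same build as mm10).

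The test was the robust quasi-likelihood F test of edgeR 4.0.16 in R 4.3.3 after filterByExpr and TMM scaling, with genetic model alone in the design, and p-values of 13740 genes were Benjamini-Hochberg adjusted (threshold 0.05). Each SE was derived from the fold change and its F statistic. CPM used TMM effective library sizes, and values are mean ± SD. Exact permutation tests on log2 CPM (prior count 2) were two-sided over 35 splits. Alternatives were size factors (RLE), no filter, 1 CPM in 3 libraries, DESeq2 1.42.0, limma-voom (limma 3.58.1), a replicate block and each library left out.

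The 10 genes and all lists were chosen with earlier results of these data known. Neighbours are the nearest tested genes that do not overlap the member. Named genes are the 10, Vgll3 and Ccne1, of each pathway list the gene of highest mean CPM and the called genes with the largest changes (at most 2 in each direction), nearest tested neighbours, the most alike genes of the 3 called members with the largest change, and the marker of highest mean CPM in each cell type list; other genes named, among them Stc1, Stc2, Dpt, Dpp4, Thy1, Col1a1, Col1a2, Prrx1 and Pik3r2, were chosen after their values were seen.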

Additional observations from a re-analysis of the deposited data

Results flagged for a closer look

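In the group of 4 Ccne1-labelled libraries, 78 named genes were screened for a library far from the other 3, and 3 were found, while chance flags about 1 in 20 such groups. Vgll3 was lowest in Ccne1 replicate 1, at 37.9 CPM. Gnptg was lowest in the same library, at 17.0 CPM. Htra1 was highest in Ccne1 replicate 3, at 915 CPM. None of the 10 IGF genes was among them, and the group of 3 Vgll3-labelled libraries is too small for this screen.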

How the results depend on the processing

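Igf2r, Igfbp2, Igfbp3, Igfbp4 and Igfbp6 kept their direction and their call under all 13 alternatives, with the largest edgeR, DESeq2 or limma adjusted p between 0.000645 (Igfbp6) and 0.0160 (Igf2r). Igf2 kept its direction under the 12 alternatives that could test it and its call under 11; the filter at 1 CPM in 3 libraries removed it. Over all genes, 7133 were called, and 6023 to 7334 when 1 library was left out. Of the 10 genes, leaving out a library gave 2 higher throughout and 4 to 5 lower. Without Vgll3 replicate 3 the direction of Igf1 and Igfbp5, neither of them called, turned to log2 −0.0797 and −0.0268; over all libraries left out in turn their highest values were 1.35 and 1.47. Igf1r passed under 3 alternatives.

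Replicate numbers in the labels are shared between groups. Deviations from the group means correlated at −0.161, −0.146 and −0.113 for equal numbers, and no library correlated best with its own number. With so few libraries these weak correlations cannot decide whether libraries of equal number shared a processing step. With the replicate block 4841 genes were called, and 1 of the 10 genes was higher, against 16.6% of all tested genes. The call of Igf2 was lost (edgeR adjusted p = 0.0524) at a log2 fold change of 3.601, against 3.90 without the block. Ccne1 replicate 4 has no Vgll3-labelled partner, so under the block it adds nothing to the difference between the models. The block also leaves less from which to estimate library-to-library variation. An effect of replicate number on a lost call cannot be told apart from this loss of power, and the cause was not tested. Depth limits Igf2 and Igfbp2, with 11 and 18 counts in their lower groups. Scaling moved the median of all genes by under 0.1 on the log2 scale.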
